A study of Saccharomyces cerevisiae with 18 samples.

Results

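The Hsp70, Hsp110 and Hsp100 chaperones of budding yeast were followed through 18 RNA sequencing libraries. The group is 10 genes of the 7118 features in the count table, taken by gene symbol: the cytosolic Hsp70 genes SSA1, SSA2, SSA3 and SSA4, the ribosome-bound Hsp70 genes SSB1 and SSB2, the Hsp110 genes SSE1 and SSE2, and the Hsp100 genes HSP104 and HSP78. The libraries fall into 6 groups of 3 replicates. Aged msn2∆msn4∆ cells carried msn2::HphNT1 and msn4::NatNT2, aged msn2∆ cells carried msn2::HphNT1 alone, and aged wild-type cells carried neither marker. Young msn2∆msn4∆, young msn2∆ and young wild-type cells were the same 3 strains taken from exponential cultures. Every strain was labelled MAT@ and was grown in biotin-free SC YNB medium with 2% glucose and 2% MMP DAPA at pH 4.5. Aged cells were biotin-marked mothers that were bound to streptavidin beads and kept for 24 h in a Ministat Aging Device, where medium is pumped past cells held by a magnet. Age therefore changes together with growth mode, bead labelling and selection of mothers, and these cannot be told apart. Each genotype is 1 strain, so a difference between strains and an effect of the deletion cannot be told apart either. The labels do not say whether replicates came from separate cultures, and the spread behind the p-values may be technical.

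Hsp70 proteins bind exposed hydrophobic stretches of unfolded or newly made proteins and release them in an ATP-driven cycle. Hsp110 proteins serve as nucleotide exchange factors for Hsp70, and Hsp104 pulls single chains out of protein aggregates and hands them to Hsp70 for refolding. Hsp78 is its relative in the mitochondrial matrix. SSA1, SSA2, SSB1, SSB2 and SSE1 are known as the constitutive, abundant genes of their families, and SSA3, SSA4 and SSE2 as their stress-induced relatives. A pair of transcription factor systems is known to act on such genes in yeast: Hsf1, which binds heat shock elements, and Msn2 with its close relative Msn4, which bind the stress response element with the core AGGGG. Msn2 and Msn4 are the factors removed here.

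The deleted genes were read first, since they check the labels. MSN2 stood at 3.57 to 4.29 CPM (group means of CPM, counts per 1e6 counts, scaled with TMM factors) in the 4 groups without MSN2, against 33.4 CPM in aged and 41.7 CPM in young wild type. MSN4 stood at 13.4 CPM in aged and 21.4 CPM in young msn2∆msn4∆ cells, against 51.5 CPM in aged and 42.6 CPM in young wild type, so reads on this gene remained in the double deletion. MSN4 was higher in aged msn2∆ cells than in aged wild type, at 84.1 against 51.5 CPM. The 3 aged msn2∆msn4∆ libraries were shallow, with 4078400 to 7136185 counts, against 25768602 to 41649952 counts in the other 15. All 10 chaperone genes passed the filter on low counts, and the lowest count of any of them in a library was 150, for SSA3. Markers fit the labelled mating type: 4 alpha-cell genes summed to 3613 to 6115 CPM and 6 a-cell genes to 31.7 to 55.4 CPM over all libraries. The 11 daughter-cell genes were present in aged cells as well, at summed levels of 2002 to 2343 CPM in msn2∆msn4∆, 1522 to 1674 CPM in msn2∆ and 1456 to 1631 CPM in wild type, against 1852 to 2151, 1662 to 1866 and 1245 to 1321 CPM in the same strains when young.

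The upstream regions of 6 of the genes are shown because HSP104, HSP78, SSA1, SSE2 and SSA4, which were lower in aged msn2∆msn4∆ cells, and SSA2, which was not called different there, differ in the elements they hold. Each stretch runs 5′ to 3′ toward the gene from base 300 to base 121 before the start codon, in build R64, and capitals mark motif matches: AGGGG on either strand (CCCCT when it lies on the other strand) and 3 alternating heat shock units on either strand. The units are GAA, TTC and GAA, or TTC, GAA and TTC, with NN (any bases) between neighbours. HSP104 lies at chrXII:88323-88502 on the plus strand and HSP78 at chrIV:974364-974543 on the minus strand. SSA1 lies at chrI:141552-141731, SSE2 at chrII:576117-576296 and SSA2 at chrXII:97606-97785, all on the minus strand, and SSA4 at chrV:364289-364468 on the plus strand.
HSP104: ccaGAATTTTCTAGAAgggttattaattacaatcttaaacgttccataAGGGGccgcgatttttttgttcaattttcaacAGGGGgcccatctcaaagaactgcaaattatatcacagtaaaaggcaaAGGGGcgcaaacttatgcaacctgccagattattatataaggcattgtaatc
HSP78: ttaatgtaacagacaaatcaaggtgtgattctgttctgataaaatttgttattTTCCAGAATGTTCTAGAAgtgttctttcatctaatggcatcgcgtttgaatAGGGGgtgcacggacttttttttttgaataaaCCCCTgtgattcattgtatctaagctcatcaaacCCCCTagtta
SSA1: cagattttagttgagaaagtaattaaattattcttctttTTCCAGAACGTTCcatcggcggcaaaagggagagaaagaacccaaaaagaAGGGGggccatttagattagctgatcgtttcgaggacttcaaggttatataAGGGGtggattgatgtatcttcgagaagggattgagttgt
SSE2: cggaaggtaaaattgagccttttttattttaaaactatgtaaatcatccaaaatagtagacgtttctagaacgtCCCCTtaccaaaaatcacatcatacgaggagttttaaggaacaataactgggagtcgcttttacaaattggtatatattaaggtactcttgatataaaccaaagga
SSA4: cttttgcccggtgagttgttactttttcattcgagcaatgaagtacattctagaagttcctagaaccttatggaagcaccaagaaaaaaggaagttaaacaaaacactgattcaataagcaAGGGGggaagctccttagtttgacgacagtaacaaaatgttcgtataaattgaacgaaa
SSA2: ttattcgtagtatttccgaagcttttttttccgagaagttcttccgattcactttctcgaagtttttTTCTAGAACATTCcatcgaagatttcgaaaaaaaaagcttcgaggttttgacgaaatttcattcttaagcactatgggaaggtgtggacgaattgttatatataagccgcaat
Over the full 300 bases, HSP104 and HSP78 held 3 AGGGG matches each, SSA1 held 2, SSE2 and SSA4 held 1 each, and SSA2, SSA3, SSB1 and SSB2 held 0. Of 6001 promoters of this length, 22.2% held at least 1 match and 3.45% held 2 or more. The heat shock pattern was found 2 times, overlapping, in HSP78 and 1 time each in HSP104, SSA1 and SSA2, and it occurred in 0.867% of all promoters. A match is a string of letters and not a measured binding site, and the search takes no account of shorter or interrupted heat shock elements.

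The number of chaperone genes that passed the test in each comparison is set here beside the share of all 6833 tested genes that did. A gene was called at a Benjamini-Hochberg adjusted p under 0.05 in edgeR's quasi-likelihood test. Aged against young, 5 of the 10 rose and 5 fell in msn2∆msn4∆, where 61.2% of all genes were called (31.2% higher, 29.9% lower). In msn2∆ 5 rose and 5 fell, where 69.6% were called (36.6% higher, 33% lower), and in wild type 7 rose and 2 fell, where 63.9% were called (33.3% higher, 30.6% lower). Most of the genome was called for age, so a call by itself sets a chaperone gene little apart, and sizes and directions are described.

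Between strains in aged cells, 2 rose and 5 fell in msn2∆msn4∆ against wild type, where 36.3% of all genes were called (16.6% higher, 19.7% lower). In msn2∆ against wild type 0 rose and 4 fell, with 30% of all genes called (13.9% higher, 16% lower). In msn2∆msn4∆ against msn2∆ 2 rose and 5 fell, with 24.8% called (11.3% higher, 13.5% lower). Between strains in young cells, 2 rose and 1 fell in msn2∆msn4∆ against wild type (37.7% of all genes called, 17.9% higher and 19.9% lower). The same numbers were called in msn2∆ against wild type (30.5%, 15% higher and 15.5% lower). Between young msn2∆msn4∆ and young msn2∆ cells 0 passed (0.454% of all genes called, 0.132% higher and 0.322% lower), also 0 with DESeq2, while 3 had an unadjusted p under 0.05 in edgeR.

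The age effect itself was lower than in wild type for 6 of the 10 and higher for 0 in msn2∆msn4∆, where 16.2% of all genes were called (7.17% higher, 8.99% lower). In msn2∆ it was lower for 5 and higher for 0, where 14.8% were called (7.54% higher, 7.23% lower). It was lower in msn2∆msn4∆ than in msn2∆ for 1 and higher for 0, where 6.18% were called (1.71% higher, 4.46% lower). Comparisons that share wild-type or msn2∆ libraries are not independent of each other.

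Scaling bears on the age comparisons. With TMM factors the median log2 fold change of all genes was 0.03 in each strain, whereas with library totals alone it was 0.46 in msn2∆msn4∆, 0.62 in msn2∆ and 0.54 in wild type. Of all genes, 2135 were then called higher and 2044 lower with TMM in msn2∆msn4∆, against 4104 and 827 with library totals. In msn2∆ the split was 2501 and 2253 with TMM, against 4927 and 645, and in wild type it was 2272 and 2093, against 4753 and 598. Of the 10 chaperone genes, 5 rose and 3 fell in msn2∆msn4∆, 7 rose and 2 fell in msn2∆ and 8 rose and 1 fell in wild type with library totals. Library totals also shifted the strain comparisons. The median of all genes was then 0.08, 0.15 and -0.06 in aged cells and 0.16, 0.04 and 0.11 in young cells, for msn2∆msn4∆ against wild type, msn2∆ against wild type and msn2∆msn4∆ against msn2∆. In aged cells they called 1344 genes higher and 995 lower in msn2∆msn4∆ against wild type (1133 and 1345 with TMM), 1658 and 507 in msn2∆ against wild type (952 and 1095), and 293 and 1017 in msn2∆msn4∆ against msn2∆ (771 and 925). In young cells they called 2005 and 681, 1056 and 674, and 10 and 9 in the same comparisons (1221 and 1358, 1023 and 1061, 9 and 22 with TMM). Of the 10 chaperone genes, library totals called 2 higher and 5 lower, 0 and 3, and 0 and 3 in these aged comparisons, and 3 and 0, 2 and 0, and 0 and 0 in the young ones. For the age effect they called 239 genes higher and 684 lower in msn2∆msn4∆ minus wild type (490 and 614 with TMM), 504 and 180 in msn2∆ minus wild type (515 and 494), and 28 and 542 in msn2∆msn4∆ minus msn2∆ (117 and 305). Of the 10, 6, 3 and 3 were then lower and 0 higher. Fold changes given here are with TMM factors, that is, relative to the bulk of the transcriptome. Where one described for any of the 10 chaperone genes loses its call, gains one or turns with library totals, this is named beside it. Values with library totals were not examined for single genes outside the 10 or for the partner lists. How far their calls depend on scaling is therefore not known.

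**Figure D1:**
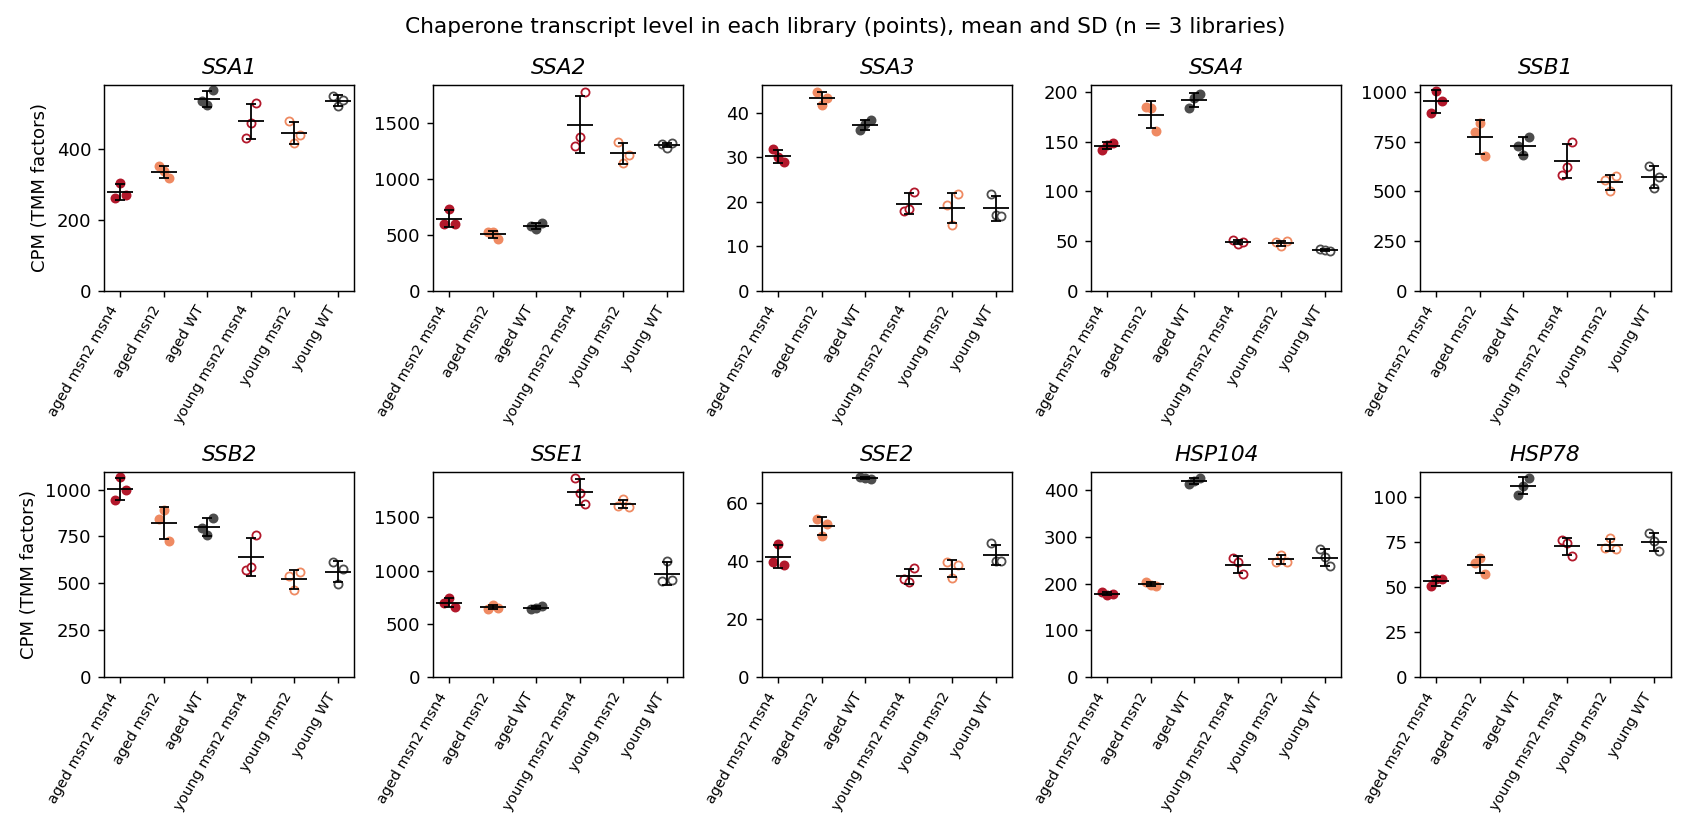
Transcript level of the 10 chaperone genes in CPM with TMM factors (y axis, linear from 0) in the 6 groups (x axis); points are the 3 libraries of a group (filled aged, open young), and bars give mean and SD. HSP104 and HSP78 are highest in aged wild type, SSA4 is high in all 3 aged groups, and SSE1 is high in the young deletion strains.

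The cytosolic Hsp70 genes did not move together with age. SSA4 (YER103W), the heat-induced member, rose in every strain and SSA3 (YBL075C), induced at the diauxic shift and in stationary phase, rose in every strain, while SSA2 (YLL024C), the most abundant constitutive member in young cells, fell in every strain. SSA1 (YAL005C), constitutive but also heat-inducible, was not called in wild type and fell in both deletion strains. In bulk RNA, a change in the number of cells of a kind and a change of RNA per cell cannot be told apart.

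SSA4 measured 142, 147 and 149 CPM in aged msn2∆msn4∆ cells, 185, 184 and 161 CPM in aged msn2∆ and 184, 194 and 198 CPM in aged wild type. In young cells it measured 50.5, 46.6 and 49 CPM in msn2∆msn4∆, 49.1, 44.7 and 49.4 CPM in msn2∆ and 41.4, 40.3 and 39.7 CPM in wild type. Every aged library lay above every young one, and the aged msn2∆msn4∆ libraries lay below all other aged ones. The age effect of SSA4 was 1.58 ± 0.0733 (log2 fold change ± SE, adjusted p = 1.1e-12) in msn2∆msn4∆, 1.89 ± 0.0722 (adjusted p = 2.54e-14) in msn2∆ and 2.25 ± 0.0732 (adjusted p = 2.14e-15) in wild type, which is 4.75-fold in the last. It was smaller than in wild type by 0.66 in msn2∆msn4∆ (adjusted p = 0.000157) and by 0.36 in msn2∆ (adjusted p = 0.0202). The msn2∆ difference was lost with library totals (log2 -0.28, adjusted p = 0.225) and with all libraries thinned to the smallest total (log2 -0.31, adjusted p = 0.16). Leaving out young wild-type replicate 3 (adjusted p = 0.0543), young msn2∆ replicate 1 (0.0526) or 3 (0.05), or aged msn2∆ replicate 3 (0.0503) ended it as well.

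SSA4 was also slightly higher in the young deletion strains than in young wild type, by 0.27 ± 0.0719 in msn2∆msn4∆ (adjusted p = 0.00661) and 0.24 ± 0.0721 in msn2∆ (adjusted p = 0.0171). Thinned to equal totals, neither call held (adjusted p = 0.0582 and 0.208), and the msn2∆ call also ended without young wild-type replicate 3 (0.0648), young msn2∆ replicate 1 (0.0691) or young msn2∆ replicate 3 (0.0708). In aged cells SSA4 was lower in msn2∆msn4∆ than in wild type, by a log2 fold change of -0.40 ± 0.0707 (adjusted p = 0.000168). In aged msn2∆ against wild type it was -0.12 ± 0.0687 and was not called (adjusted p = 0.189).

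SSA3 was the least abundant of the 10 genes per base of coding length in all 6 groups. It measured 31.9, 30 and 29 CPM in aged msn2∆msn4∆, 44.8, 41.9 and 43.4 CPM in aged msn2∆ and 36.2, 37.6 and 38.4 CPM in aged wild type. The young libraries ranged from 18 to 22.2 CPM in msn2∆msn4∆, 14.8 to 21.7 CPM in msn2∆ and 16.8 to 21.8 CPM in wild type. The 3 aged groups did not overlap with each other or with young cells, whereas the 3 young groups overlapped. The age effect of SSA3 was 0.63 ± 0.129 in msn2∆msn4∆ (adjusted p = 0.000328), 1.23 ± 0.116 in msn2∆ (adjusted p = 2.9e-08) and 1.01 ± 0.116 in wild type (adjusted p = 5.72e-07). The double deletion's age effect was smaller than that of msn2∆ by 0.60 ± 0.173 (adjusted p = 0.0432), the 1 gene called in that comparison. That call was lost with only the libraries of the contrast (adjusted p = 0.0597), after thinning (0.316) and without any one of 9 of the 12 libraries it rests on (adjusted p of 0.0603 to 0.113). In aged cells SSA3 was lower in msn2∆msn4∆ than in msn2∆ (log2 -0.52 ± 0.124, adjusted p = 0.00478). Against aged wild type neither strain was called, at -0.30 ± 0.124 for msn2∆msn4∆ (adjusted p = 0.0635) and 0.21 ± 0.11 for msn2∆ (adjusted p = 0.148), although both were called when only the libraries of the contrast were fitted (adjusted p = 0.0105 and 0.0138).

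SSA2 measured 593, 726 and 597 CPM in aged msn2∆msn4∆, 522, 519 and 462 CPM in aged msn2∆ and 573, 553 and 604 CPM in aged wild type. In young cells it measured 1294, 1375 and 1771 CPM in msn2∆msn4∆, 1326, 1139 and 1213 CPM in msn2∆ and 1305, 1277 and 1315 CPM in wild type. Every aged library lay below every young one. The fall was -1.21 ± 0.112 in msn2∆msn4∆, -1.29 ± 0.112 in msn2∆ and -1.17 ± 0.111 in wild type (adjusted p = 3.81e-08, 8.46e-09 and 5.07e-08 in that order). The difference from the wild-type age effect was -0.04 ± 0.156 for msn2∆msn4∆ and -0.12 ± 0.155 for msn2∆, and neither was called. Between young strains SSA2 was at 0.19 ± 0.11 in msn2∆msn4∆ against wild type (adjusted p = 0.189), which was called with library totals (0.37, adjusted p = 0.0407), and at -0.08 ± 0.11 in msn2∆ against wild type (adjusted p = 0.597). With library totals the fall with age was smaller, at -0.79, -0.70 and -0.66 in the same order, and was still called.

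SSA1 measured 262, 305 and 270 CPM in aged msn2∆msn4∆, 353, 339 and 319 CPM in aged msn2∆ and 538, 525 and 567 CPM in aged wild type. In young cells it measured 433, 474 and 530 CPM in msn2∆msn4∆, 480, 418 and 440 CPM in msn2∆ and 552, 522 and 539 CPM in wild type. The aged deletion libraries lay below all others without overlap, while aged and young wild type overlapped. SSA1 changed with age by -0.78 ± 0.0885 in msn2∆msn4∆ (adjusted p = 4.84e-07) and -0.41 ± 0.0871 in msn2∆ (adjusted p = 0.000394), against 0.01 ± 0.0869 in wild type (adjusted p = 0.892). With library totals the msn2∆ value was 0.19 (adjusted p = 0.149) and the wild-type value 0.52 (adjusted p = 0.000478).

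Set against aged wild type, SSA1 was lower by a log2 fold change of -0.96 ± 0.0887 in aged msn2∆msn4∆ (adjusted p = 4.22e-08) and -0.69 ± 0.0873 in aged msn2∆ (adjusted p = 7.8e-06), and these calls held under every alternative, at their smallest (-0.29 and -0.42) with SSA1 and SSA2 summed. The age effect of SSA1 was lower than in wild type by 0.80 ± 0.124 in msn2∆msn4∆ (adjusted p = 0.000191) and by 0.42 ± 0.123 in msn2∆ (adjusted p = 0.0267). The msn2∆ difference ended with library totals (adjusted p = 0.214), after thinning (0.0588) and without young wild-type replicate 3 (0.0566), young msn2∆ replicate 1 (0.077), aged wild-type replicate 1 (0.0527) or 3 (0.0657) or aged msn2∆ replicate 3 (0.0575). In young cells the difference from wild type was -0.17 ± 0.087 for msn2∆msn4∆ (adjusted p = 0.142) and -0.27 ± 0.0871 for msn2∆ (adjusted p = 0.0247). The young msn2∆ call was lost with library totals (adjusted p = 0.18), with only the libraries of the contrast (0.0586), and without young wild-type replicate 1 (0.0606) or 3 (0.0653) or young msn2∆ replicate 2 (0.0902) or 3 (0.0729).

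Reads of SSA1 and SSA2 cannot be fully separated. Their coding sequences were 96.8% identical, and 35.6% of the 150-base windows of SSA1 occur in SSA2 as well, whereas SSA3 and SSA4 shared 0 such windows with any other part of the genome. How the authors treated reads that fit both genes is not given in the sources used here, so values of SSA1 and SSA2 are uncertain. With both genes summed, the age effect was -1.09 in msn2∆msn4∆, -1.0 in msn2∆ and -0.71 in wild type, and the differences from the wild-type age effect, at -0.38 (adjusted p = 0.0887) and -0.28 (adjusted p = 0.217), were not called. The summed level in aged cells was lower than in wild type by -0.29 in msn2∆msn4∆ (adjusted p = 0.0384) and by -0.42 in msn2∆ (adjusted p = 0.00522). YAL004W, a dubious reading frame known to overlap SSA1, had 27.1 to 80.4 CPM across the libraries, and adding its counts to SSA1 changed no call of the 10 genes.

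**Figure D2:**
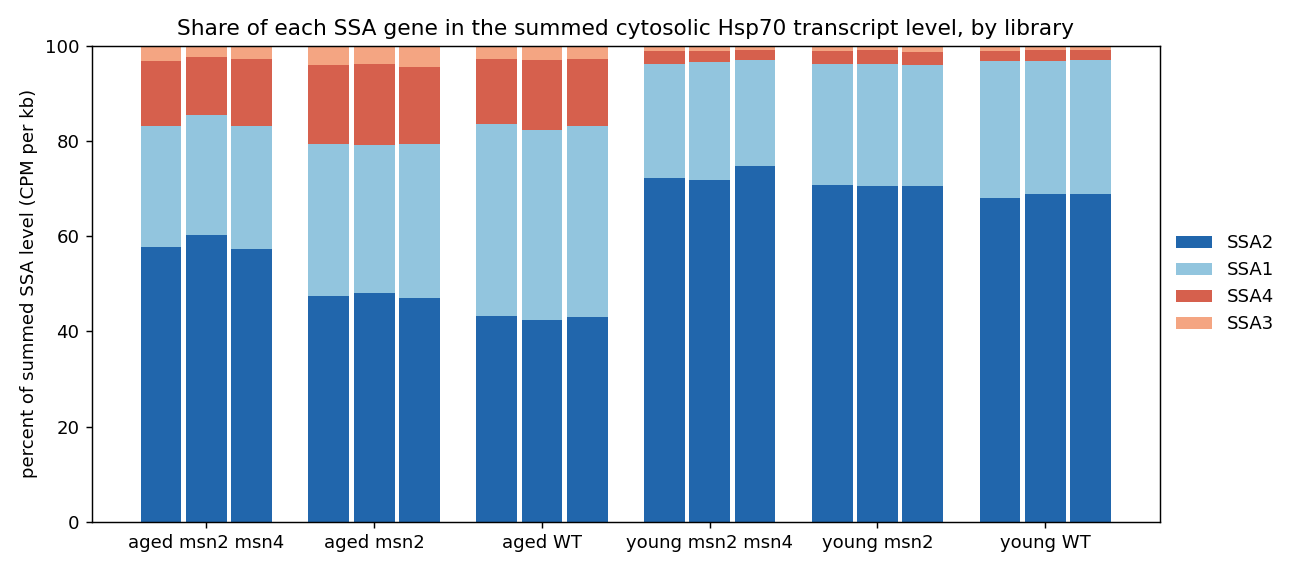
Share of SSA2, SSA1, SSA4 and SSA3 in the summed level of the 4 SSA genes (CPM per kb of coding length, percent, y axis) in each of the 18 libraries (bars, grouped by strain and age on the x axis). SSA2 makes up 42.3 to 60.3% of the sum in aged libraries and 68.1 to 74.7% in young ones, and SSA4 12.1 to 17% and 2.06 to 2.86%.

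Put on one scale per length, the make-up of the cytosolic Hsp70 transcripts differed between aged and young cells. SSA2 made up 58.4% ± 1.61 of the summed SSA level in aged msn2∆msn4∆, 47.5% ± 0.466 in aged msn2∆ and 42.9% ± 0.446 in aged wild type, against 72.9% ± 1.56, 70.6% ± 0.201 and 68.6% ± 0.493 in the young cells of the same strains (mean ± SD, n = 3). SSA4 made up 13.4% ± 1.1, 16.7% ± 0.328 and 14.2% ± 0.499 in aged cells of these strains, against 2.43% ± 0.374, 2.74% ± 0.123 and 2.13% ± 0.0499 in young cells. SSA1 made up 25.5% ± 0.315, 31.8% ± 0.528 and 40.2% ± 0.14 in aged cells, against 23.7% ± 1.25, 25.6% ± 0.179 and 28.3% ± 0.345 in young cells. The sum itself was 568 ± 51.4 CPM per kb in aged msn2∆msn4∆, 549 ± 33.2 in aged msn2∆ and 701 ± 27 in aged wild type, against 1054 ± 159, 904 ± 67.3 and 986 ± 18.2 in the young cells. With TMM factors, aged and young libraries did not overlap in any strain. The sum was not repeated with library totals, so a fall of the sum is not shown on that scale. With library totals SSA2 fell by less in wild type (-0.66) and SSA1 rose there (0.52).

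Ratios of the genes within a library do not depend on how libraries are scaled, and 6 of them were tested in 3 comparisons each with an exact two-sided permutation test, with Benjamini-Hochberg adjustment over the 18 tests. Permuting age within strains, SSA4 over SSA2 was higher in aged cells by 3.13 on the log2 scale, SSA3 over SSA2 by 2.19 and SSA1 over SSA2 by 0.83, each with exact p = 0.00025, the smallest the design can give, and adjusted p = 0.0009. By strain, the SSA4 over SSA2 difference was 2.79 in msn2∆msn4∆, 3.18 in msn2∆ and 3.42 in wild type. In aged cells SSA2 was 4.38, 2.85 and 3.01 times SSA4 per kb in these strains, against 30.2, 25.8 and 32.2 times in young cells. SSA1 over SSA2 differed between aged and young cells by 0.43 in msn2∆msn4∆, 0.89 in msn2∆ and 1.19 in wild type, and in aged wild type SSA2 was only 1.07 times SSA1.

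Permuting strain within ages, SSA1 over SSA2 was lower than in wild type by a mean log2 difference of -0.73 in msn2∆msn4∆ and -0.34 in msn2∆ (exact permutation p = 0.005 each, the smallest possible, adjusted p = 0.009). By age it was -0.35 in young and -1.10 in aged msn2∆msn4∆, and -0.19 in young and -0.49 in aged msn2∆, each without overlap. SSA4 over SSA2 differed by a mean of -0.22 in msn2∆msn4∆ (exact p = 0.125, adjusted 0.141) and was higher by a mean of 0.20 in msn2∆ (exact p = 0.01, adjusted 0.0164). These means join unlike ages. In msn2∆msn4∆ the difference was 0.09 in young cells, with overlap, and -0.54 in aged cells, without overlap. In msn2∆ it was 0.32 in young cells, without overlap, and 0.08 in aged cells, with overlap. SSA3 over SSA2 was lower by -0.27 in msn2∆msn4∆ (exact p = 0.035, adjusted 0.0485), a call that ended without 7 of the 12 libraries in turn, among them young wild-type replicate 1 (log2 -0.21, adjusted 0.0836). It was 0.25 in msn2∆ and was not called (exact p = 0.045, adjusted 0.0579), but was called without young wild-type replicate 1 (0.31, adjusted 0.0277) or young msn2∆ replicate 2 (0.30, adjusted 0.0375). By age the SSA3 over SSA2 difference was -0.09 in young msn2∆msn4∆ and 0.08 in young msn2∆, with overlap. In aged cells it was -0.44 in msn2∆msn4∆ and 0.42 in msn2∆, without overlap.

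**Figure D3:**
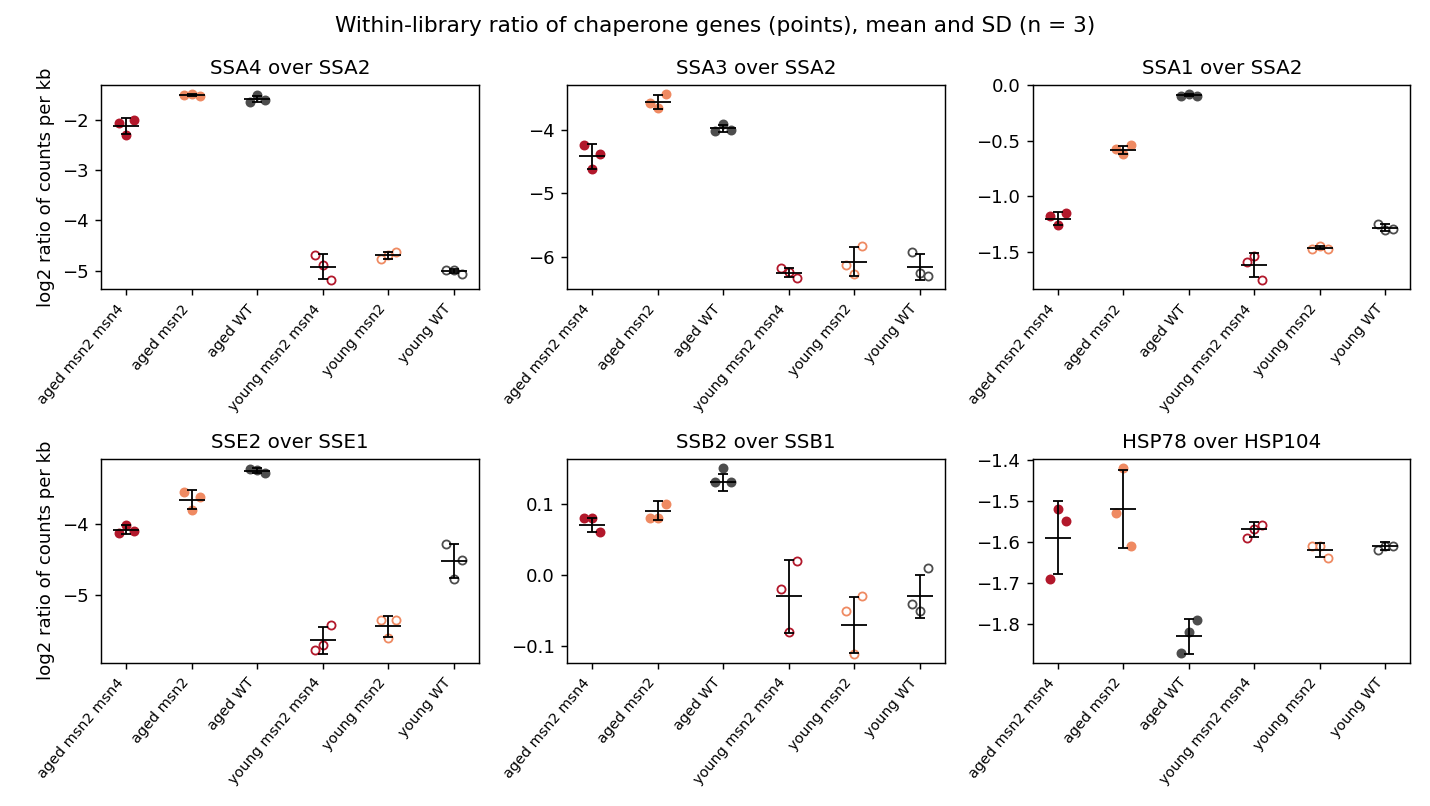
Log2 ratio of counts per kb of 6 gene pairs (y axis) in the 6 groups (x axis); points are libraries (filled aged, open young), and bars give mean and SD of 3. The ratios of SSA4, SSA3 and SSA1 to SSA2 and of SSE2 to SSE1 are higher in aged than in young cells of each strain, while HSP78 over HSP104 is lowest in aged wild type.

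SSB1 (YDL229W) and SSB2 (YNL209W) encode the Hsp70 that sits at the ribosome exit tunnel with the partner complex of Zuo1 and Ssz1. Both genes rose with age in all 3 strains. SSB1 measured 894, 1009 and 958 CPM in aged msn2∆msn4∆, 798, 843 and 677 CPM in aged msn2∆ and 731, 683 and 775 CPM in aged wild type, against 584, 623 and 748, then 557, 501 and 576, then 630, 516 and 575 CPM in the young cells of these strains. Aged and young libraries of a strain did not overlap. Its age effect was 0.55 ± 0.108 in msn2∆msn4∆ (adjusted p = 0.000227), 0.50 ± 0.108 in msn2∆ (adjusted p = 0.000372) and 0.35 ± 0.108 in wild type (adjusted p = 0.00864). Without young wild-type replicate 2 the wild-type value was 0.28 and was no longer called (adjusted p = 0.051).

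SSB2 averaged 1003 ± 60.9 CPM in aged msn2∆msn4∆, 820 ± 84.5 in aged msn2∆ and 800 ± 45.8 in aged wild type, against 641 ± 103, 521 ± 51.2 and 563 ± 58 CPM in young cells (SD, n = 3). The age effect of SSB2 was 0.64 ± 0.115, 0.65 ± 0.115 and 0.51 ± 0.115 in the same order of strains (adjusted p = 8.46e-05, 5.05e-05 and 0.000773). In aged msn2∆msn4∆ against aged wild type SSB1 was higher by 0.39 ± 0.108 (adjusted p = 0.00806) and SSB2 by 0.32 ± 0.115 (adjusted p = 0.0327). The SSB2 call ended without aged wild-type replicate 1 (adjusted p = 0.0785) or 2 (0.119) or aged msn2∆msn4∆ replicate 2 (0.113) or 3 (0.062). Daughter-cell genes moved in the same aged comparison, with 9 of 11 higher in msn2∆msn4∆ than in wild type (16.6% of all genes were higher). In aged msn2∆ against wild type 2 of 11 were higher, near the share of all genes (13.9%). Between aged msn2∆msn4∆ and aged msn2∆, 8 of 11 daughter-cell genes were higher in msn2∆msn4∆ (11.3% of all genes). The part of daughter-cell genes in the strain differences of aged cells, here and for the other chaperone genes, was not tested. Aged msn2∆ and aged wild type overlapped for both genes, with differences of 0.08 ± 0.108 for SSB1 and 0.03 ± 0.114 for SSB2.

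The coding sequences of SSB1 and SSB2 were 97.6% identical, and 25.5% of their 150-base windows were shared, so how their counts are divided is uncertain too. Their ratio stayed near 1 in every library. SSB2 over SSB1 was nevertheless higher in aged than in young cells by 0.14 on the log2 scale (exact permutation p = 0.00025, adjusted 0.0009), and the 2 ages did not overlap within any strain. YDL228C, a dubious reading frame known to overlap SSB1, stood at 279 to 396 CPM over the libraries and showed no called age effect in the 3 strains (log2 0.03, 0.00 and 0.02 in msn2∆msn4∆, msn2∆ and wild type), and adding its counts to SSB1 changed no call.

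The Hsp110 genes differed with age and between strains, SSE1 between strains in young cells and SSE2 mainly in aged cells. SSE1 (YPL106C), the abundant exchange factor, measured 697, 742 and 662 CPM in aged msn2∆msn4∆, 640, 677 and 650 CPM in aged msn2∆ and 645, 646 and 669 CPM in aged wild type. In young cells it measured 1867, 1724 and 1623 CPM in msn2∆msn4∆, 1609, 1668 and 1593 CPM in msn2∆ and 902, 1094 and 913 CPM in wild type. The young deletion strains lay above young wild type without overlap, and the aged strains overlapped. SSE1 was higher in young msn2∆msn4∆ than in young wild type by 0.84 ± 0.0877 (adjusted p = 4.53e-07, 1.79-fold) and in young msn2∆ by 0.74 ± 0.0875 (adjusted p = 3.17e-06, 1.67-fold). Over all alternatives these values ranged from 0.79 to 1.01 for msn2∆msn4∆ and from 0.69 to 0.84 for msn2∆, and no call was lost. In aged cells the differences were 0.10 ± 0.0874 and 0.01 ± 0.0871 and were not called.

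SSE1 fell with age by -1.31 ± 0.0888 in msn2∆msn4∆ (adjusted p = 5.39e-10), -1.31 ± 0.0885 in msn2∆ (adjusted p = 2.18e-10) and -0.57 ± 0.0874 in wild type (adjusted p = 1.6e-05). With library totals the wild-type value was -0.06 and was not called (adjusted p = 0.53). The age effect differed from that of wild type by -0.74 ± 0.124 in msn2∆msn4∆ (adjusted p = 0.000353) and by -0.74 ± 0.123 in msn2∆ (adjusted p = 0.000677). The daughter-cell genes moved in the same young comparisons: 10 of 11 were higher in msn2∆msn4∆ (17.9% of all genes) and 9 of 11 in msn2∆ (15%) than in young wild type. None of the 11 was at 0 in any group, and their part in the SSE1 difference was not tested.

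SSE2 (YBR169C), the stress-induced relative, measured 39.7, 45.9 and 38.7 CPM in aged msn2∆msn4∆, 54.6, 48.5 and 52.9 CPM in aged msn2∆ and 68.9, 68.4 and 68.1 CPM in aged wild type, where the libraries were nearly equal. In young cells it ranged from 32.8 to 37.5 CPM in msn2∆msn4∆, 34.1 to 39.5 CPM in msn2∆ and 39.9 to 46.1 CPM in wild type. The 3 aged strains did not overlap. SSE2 rose with age by 0.24 ± 0.0911 in msn2∆msn4∆ (adjusted p = 0.026), 0.48 ± 0.0828 in msn2∆ (adjusted p = 4.51e-05) and 0.70 ± 0.0825 in wild type (adjusted p = 7.24e-07). The msn2∆msn4∆ rise is the weakest of these: it was not called with only the libraries of the contrast (adjusted p = 0.0667), after thinning (0.0859), or without young msn2∆msn4∆ replicate 1 (0.0704) or 2 (0.0969) or aged msn2∆msn4∆ replicate 2 (0.135).

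Against aged wild type, SSE2 was lower by -0.73 ± 0.0891 in msn2∆msn4∆ (adjusted p = 1.88e-06) and by -0.40 ± 0.0808 in msn2∆ (adjusted p = 0.000987), the second of which was lost with library totals (log2 -0.26, adjusted p = 0.0857). Its age effect was smaller than in wild type by 0.46 ± 0.123 in msn2∆msn4∆ (adjusted p = 0.0138), lost after thinning (adjusted p = 0.195), and differed by -0.23 ± 0.117 in msn2∆ without a call (adjusted p = 0.203). In young msn2∆msn4∆ SSE2 was lower than in wild type by -0.28 ± 0.0842 (adjusted p = 0.0146). That call ended with library totals (adjusted p = 0.498), with only the libraries of the contrast (0.0877), after thinning (0.151), and without young wild-type replicate 1 (0.0766) or young msn2∆msn4∆ replicate 2 (0.0637).

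Within libraries, SSE2 over SSE1 was higher in aged than in young cells by 1.54 on the log2 scale (exact permutation p = 0.00025, adjusted 0.0009). It was lower than in wild type by a mean of -0.97 in msn2∆msn4∆ and -0.66 in msn2∆ within ages (exact permutation p = 0.005 each, adjusted 0.009). By age the difference was -1.12 in young and -0.83 in aged msn2∆msn4∆, and -0.92 in young and -0.40 in aged msn2∆, each without overlap. SSE2 made up 5.58% ± 0.225 of the summed Hsp110 level per kb in aged msn2∆msn4∆, 7.36% ± 0.607 in aged msn2∆ and 9.49% ± 0.217 in aged wild type, against 1.97% ± 0.254, 2.26% ± 0.22 and 4.2% ± 0.665 in young cells. The coding sequences of SSE1 and SSE2 were 73.2% identical and shared no 150-base window.

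**Figure D4:**
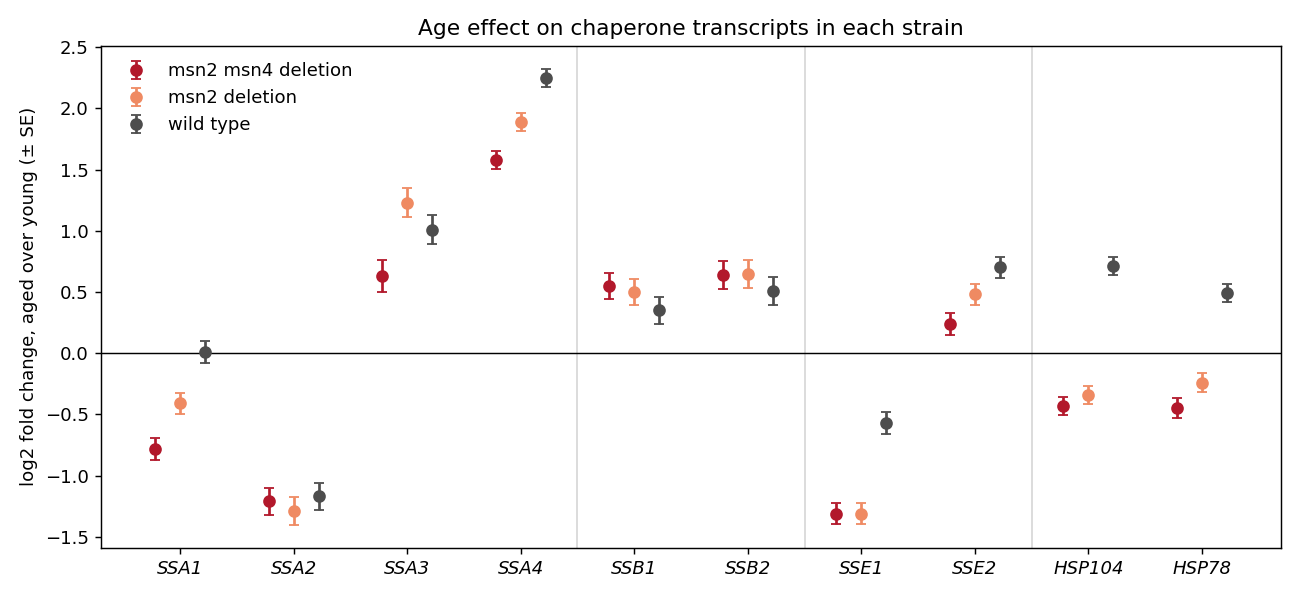
Log2 fold change of aged over young cells (y axis, ± SE from edgeR, 3 libraries a group) for the 10 chaperone genes (x axis) in msn2∆msn4∆, msn2∆ and wild type (colours). SSA2 falls in the 3 strains, by 1.21, 1.29 and 1.17, and HSP104 and HSP78 lie above 0 in wild type and below 0 in both deletion strains; with library totals HSP104 is at 0.00, 0.25 and 1.22 and HSP78 at -0.02, 0.36 and 1.00 in these strains.

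The Hsp100 genes carried the largest differences from wild type of the 10 in aged cells. HSP104 (YLL026W, chrXII:88623-91349, plus strand) measured 182, 176 and 178 CPM in aged msn2∆msn4∆, 203, 198 and 195 CPM in aged msn2∆ and 413, 419 and 427 CPM in aged wild type. In young cells it measured 256, 247 and 220 CPM in msn2∆msn4∆, 246, 262 and 247 CPM in msn2∆ and 274, 257 and 238 CPM in wild type. The aged wild-type libraries lay above all 15 others, the young strains overlapped, and the aged deletion libraries lay below all young ones. HSP104 was lower than in aged wild type by -1.23 ± 0.0761 in msn2∆msn4∆ (adjusted p = 8.93e-11, 2.35-fold) and by -1.08 ± 0.0746 in msn2∆ (adjusted p = 1.23e-09, 2.11-fold). Over all alternatives the values lay between -1.25 and -1.14 and between -1.10 and -0.95, and no call was lost. Aged msn2∆msn4∆ was at -0.15 ± 0.0753 relative to aged msn2∆ and was not called (adjusted p = 0.151). In young cells the differences from wild type were -0.09 ± 0.0741 and -0.03 ± 0.0741, without a call (adjusted p = 0.371 and 0.804).

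HSP78 (YDR258C, chrIV:971808-974243, minus strand) measured 50.4, 54.3 and 54.4 CPM in aged msn2∆msn4∆, 63, 66 and 57 CPM in aged msn2∆ and 101, 106 and 110 CPM in aged wild type. Its young libraries ranged from 66.9 to 75.8 CPM in msn2∆msn4∆, 70.7 to 76.8 CPM in msn2∆ and 69.8 to 79.6 CPM in wild type. As for HSP104, aged wild type lay above every other library and the young strains overlapped. HSP78 was lower than in aged wild type by -1.0 ± 0.0806 in msn2∆msn4∆ (adjusted p = 5.72e-09) and -0.77 ± 0.0748 in msn2∆ (adjusted p = 2.48e-07), and no alternative lost these calls (-1.03 to -0.90 and -0.84 to -0.63). The further difference between aged msn2∆msn4∆ and aged msn2∆, -0.23 ± 0.0805 (adjusted p = 0.0441), ended under 11 alternatives, among them each of 5 single libraries left out, library totals (adjusted p = 0.0555), the replicate block (0.05), DESeq2 (0.0579) and thinning (0.295).

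Both genes rose with age in wild type, HSP104 by 0.71 ± 0.0742 (adjusted p = 1.64e-07) and HSP78 by 0.49 ± 0.075 (adjusted p = 1.47e-05). Relative to the bulk of the transcriptome they fell with age in the deletion strains. HSP104 changed by -0.43 ± 0.0755 in msn2∆msn4∆ (adjusted p = 6.56e-05) and -0.34 ± 0.0741 in msn2∆ (adjusted p = 0.000427), and HSP78 by -0.45 ± 0.081 (adjusted p = 9.11e-05) and -0.24 ± 0.0752 (adjusted p = 0.0091). These 4 falls depend on the scaling. With library totals HSP104 was at 0.00 in msn2∆msn4∆ (adjusted p = 0.994) and 0.25 in msn2∆ (adjusted p = 0.012), and HSP78 at -0.02 (adjusted p = 0.883) and 0.36 (adjusted p = 0.00157), while the median of all genes was 0.46 and 0.62. The HSP78 fall in msn2∆ also ended without aged msn2∆ replicate 3 (log2 -0.18, adjusted p = 0.0567).

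The differences between the age effects hardly moved with scaling. For HSP104 the age effect was lower than in wild type by 1.14 ± 0.106 in msn2∆msn4∆ (adjusted p = 5.2e-07) and by 1.05 ± 0.105 in msn2∆ (adjusted p = 2.12e-06), with ranges of -1.21 to -1.09 and -1.10 to -0.97 over all alternatives. For HSP78 it was lower by 0.94 ± 0.11 (adjusted p = 1.17e-05) and by 0.73 ± 0.106 (adjusted p = 0.000164), with ranges of -1.02 to -0.90 and -0.78 to -0.64. HSP78 over HSP104 did not differ detectably between aged and young cells when pooled over strains (log2 -0.04, exact permutation p = 0.329, adjusted 0.329). Within strains it was -0.22 in wild type, where the ages did not overlap, and -0.01 and 0.10 in msn2∆msn4∆ and msn2∆, where they did. Within ages the ratio was higher than in wild type by a mean of 0.14 in msn2∆msn4∆ (exact permutation p = 0.005, adjusted 0.009) and was 0.15 in msn2∆ without a call (exact p = 0.08, adjusted 0.096). These means join unlike ages too. In aged cells the difference was 0.24 in msn2∆msn4∆ and 0.31 in msn2∆, both without overlap. In young cells it was 0.04 in msn2∆msn4∆, without overlap, and -0.01 in msn2∆, with overlap.

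**Figure D5:**
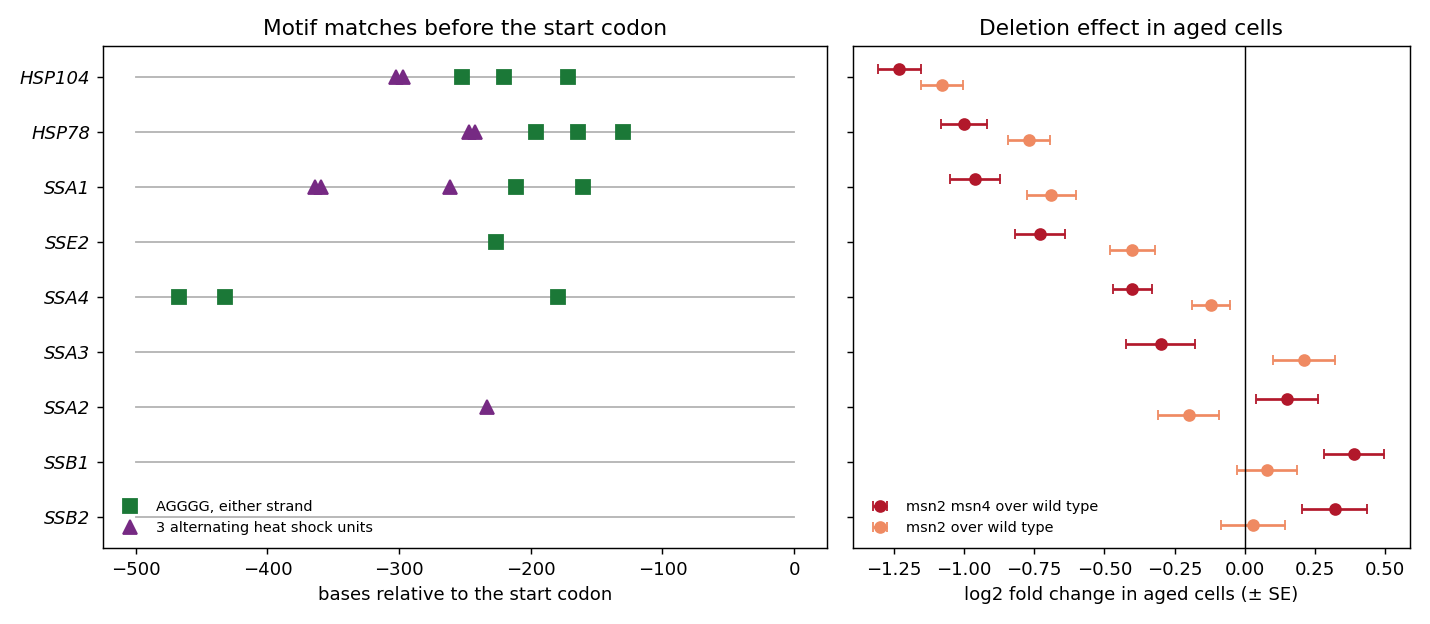
Left, matches of AGGGG (squares) and of 3 alternating heat shock units (triangles) in the 500 bases before the start codon of 9 of the genes (x axis, bases relative to the start codon); right, log2 fold change ± SE in aged msn2∆msn4∆ and msn2∆ cells over aged wild type. Of the 9 genes drawn, the 5 with an AGGGG match were lower in aged msn2∆msn4∆, from HSP104 at -1.23 to SSA4 at -0.40, where 19.7% of all genes were called lower.

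Set beside the upstream sequences, 5 of the 9 genes searched had at least 1 AGGGG match in 300 bases, and these 5 were called lower in aged msn2∆msn4∆ than in aged wild type. Of all tested genes 19.7% were called lower there, and the share among all genes with a match was not counted. By number of matches, HSP104 and HSP78 with 3 were at -1.23 and -1.0, SSA1 with 2 at -0.96, and SSE2 and SSA4 with 1 at -0.73 and -0.40. The other 4 genes searched, without a match, lay between -0.30 for SSA3 and 0.39 for SSB1. SSA4 had 3 matches in 500 bases, as many as HSP104 and HSP78, but the smallest difference of the 5, so the order by number of matches holds only for 300 bases. In aged msn2∆ against wild type HSP104, HSP78, SSA1 and SSE2 were at -1.08, -0.77, -0.69 and -0.40, and SSA4 was not called (-0.12). In young msn2∆msn4∆ HSP104 (-0.09), HSP78 (-0.05) and SSA1 (-0.17) were not called, SSE2 was lower (-0.28) and SSA4 was higher (0.27). SSA2, with 1 heat shock match at 233 bases before the start codon, was not called in aged or young cells of either deletion strain against wild type, but was higher in young msn2∆msn4∆ with library totals (0.37, adjusted p = 0.0407). With 9 genes this is a description, and sharing of sequence or reads among them was not accounted for.

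The order of the genes by level per kb differed between the ages. In aged msn2∆msn4∆, aged msn2∆ and aged wild type SSB2 led, at 544, 445 and 435 CPM per kb, followed by SSB1 with overlapping libraries and then by SSE1. In young msn2∆msn4∆ and young msn2∆ SSE1 led, at 835 and 780 CPM per kb, with SSA2 next, and in young wild type SSA2 led at 676 CPM per kb before SSE1 at 466. SSE1, SSA2 and SSA1 were neighbours whose libraries overlapped in aged wild type, at 314, 300 and 282 CPM per kb. HSP104 stood above SSA4 in aged wild type, at 154 against 99.6 CPM per kb, and below it in aged msn2∆msn4∆ (65.5 against 75.6) and aged msn2∆ (72.8 against 91.6), in each case without overlap. At the low end HSP78 and SSE2 overlapped in both aged deletion strains, and SSA4 and SSE2 in young wild type.

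For each gene the 3 genes with the most similar pattern over the 6 group means were found among 5604 genes whose log2 CPM averaged 3 or more, by the root mean square difference of centred log2 values. HSP104 and HSP78 were each other's nearest, at 0.0977, set against a root mean square of 0.389 and 0.303 around their own means. VID30, a subunit of the GID ubiquitin ligase, was among the nearest 3 of SSA1 (0.0793), HSP78 (0.104) and HSP104 (0.159). SSA2 was nearest to HCH1 (0.125), a relative of the Hsp90 co-chaperone Aha1, with CIN8, a kinesin motor, at 0.142 and STI1, which bridges Hsp70 and Hsp90, at 0.157. SSA4 was nearest to TPO2 (0.14), SSA3 to COS111 (0.0469) and PDR15 (0.0486), SSE2 to YSC84 (0.0454) and SSE1 to HUR1 (0.0647). SSB1 was nearest to GCN4 (0.0345), the activator of amino acid synthesis genes, and SSB2 to ERG10 (0.0412). These are 6 means from 18 libraries, and many genes share an age difference.

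The cytosolic partners of Hsp70, 17 genes that include the J-proteins and exchange factors, had more members lower than higher with age: 9 fell and 4 rose in msn2∆msn4∆ (29.9% of all genes fell and 31.2% rose), 12 fell and 3 rose in msn2∆ (33% and 36.6%), and 10 fell and 3 rose in wild type (30.6% and 33.3%). Their median log2 fold changes were -0.30, -0.36 and -0.24, against 0.03 for all genes in each strain. These counts and medians are with TMM factors and were not repeated with library totals. STI1 fell by 0.89 ± 0.0858, 1.04 ± 0.0844 and 0.89 ± 0.0843 in msn2∆msn4∆, msn2∆ and wild type, and SIS1, an essential J-protein, by 0.95 ± 0.0725 in msn2∆msn4∆ and 0.95 ± 0.0712 in msn2∆. In wild type SIS1 averaged 187 CPM in aged and 250 CPM in young cells. FES1, an exchange factor for Ssa proteins, fell by 0.65 ± 0.082 in wild type. Its mean level was also lower in aged than in young msn2∆msn4∆ (103 against 146 CPM) and msn2∆ (81.3 against 139 CPM). In aged cells against wild type, 8 rose and 3 fell in msn2∆msn4∆ (16.6% of all genes rose and 19.7% fell) and 1 rose and 3 fell in msn2∆ (13.9% and 16%). SSZ1, the partner of Zuo1 at the ribosome, was higher in msn2∆msn4∆ by 0.25 ± 0.0692 when aged and by 0.40 ± 0.0688 when young.

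The Hsp70 systems of mitochondria and endoplasmic reticulum, of which 15 listed genes were tested, moved in the young comparisons in which SSE1 was higher. There 10 rose and 1 fell in msn2∆msn4∆ against wild type (17.9% of all genes rose and 19.9% fell), and 9 rose and 0 fell in msn2∆ (15% and 15.5%), with medians of 0.25 and 0.21 against -0.01 for all genes. KAR2, the Hsp70 of the endoplasmic reticulum, was higher by 0.90 ± 0.0793 (adjusted p = 3.87e-08) and 0.74 ± 0.0791 (adjusted p = 9.16e-07), and LHS1, its Hsp110-type exchange factor, by 0.43 ± 0.081 and 0.48 ± 0.0811. With age 8 fell and 5 rose in msn2∆msn4∆ (29.9% of all genes fell and 31.2% rose), 10 fell and 4 rose in msn2∆ (33% and 36.6%) and 5 fell and 4 rose in wild type (30.6% and 33.3%), with medians of -0.26, -0.36 and -0.06. SSC1, the Hsp70 of the mitochondrial matrix with which Hsp78 works, fell with age by 0.88 ± 0.0754 in msn2∆msn4∆ and 0.78 ± 0.0746 in msn2∆. In wild type SSC1 averaged 386 CPM in aged and 468 CPM in young cells. Its exchange factor MGE1 fell by 0.97 ± 0.115, 1.24 ± 0.114 and 0.65 ± 0.113 in msn2∆msn4∆, msn2∆ and wild type.

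A list of 15 heat-responsive genes held Hsp90, chaperonin and small heat shock genes, and also others such as HSP30, HSP31 and HSP150. Of the 15, 9 fell and 1 rose in aged msn2∆msn4∆ against wild type (19.7% of all genes fell and 16.6% rose). In aged msn2∆ 11 fell and 1 rose (16% and 13.9%). The medians were -0.49 and -0.41 against -0.01 and 0.02 for all genes. The 3 with the smallest p in aged msn2∆msn4∆ were HSP12, HSP30 and HSP31, and the classes were not counted apart. With age 5 rose and 5 fell in msn2∆msn4∆, close to the share of all genes (31.2% rose and 29.9% fell), 7 rose and 5 fell in msn2∆ (36.6% and 33%) and 8 rose and 4 fell in wild type (33.3% and 30.6%), with medians of -0.01, 0.08 and 0.29. HSP26, a small heat shock protein that binds unfolded proteins, rose with age by 2.33 ± 0.114, 3.47 ± 0.112 and 4.55 ± 0.114 in msn2∆msn4∆, msn2∆ and wild type. The stress protein gene HSP12 was lower in aged msn2∆msn4∆ by -4.10 ± 0.158 and in aged msn2∆ by -2.31 ± 0.143. It was lower already in young cells, by -6.14 ± 0.176 and -4.78 ± 0.163. In these comparisons with wild type its fold was larger than that of any of the 10 chaperone genes. Unlike theirs, the age effect of HSP12 was called higher in msn2∆ than in wild type, by 2.47 ± 0.2.

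Aggregate sorting partners of Hsp104 numbered 5 in the list. HSP42, which gathers misfolded proteins into cytosolic deposits, was higher with age by 1.66 ± 0.103 in msn2∆msn4∆, 1.98 ± 0.0953 in msn2∆ and 1.63 ± 0.0908 in wild type, with a call in each strain. It was lower than in aged wild type by -1.52 ± 0.0962 in msn2∆msn4∆ and -0.96 ± 0.0879 in msn2∆, and lower already in young cells, by -1.54 ± 0.0968 and -1.31 ± 0.0959. BTN2, a sorting factor for misfolded proteins, was higher in msn2∆msn4∆ than in wild type by 0.66 ± 0.104 when aged and by 0.70 ± 0.103 when young.

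HSF1, the gene of the heat shock factor, stood at 39 ± 5.83 CPM in aged msn2∆msn4∆, 37.2 ± 1.38 in aged msn2∆ and 36.6 ± 1.77 in aged wild type, against 32.5 ± 3.9, 31.9 ± 0.766 and 29.3 ± 1.02 CPM in young cells. It was higher with age by 0.25 ± 0.098 (adjusted p = 0.0351), 0.22 ± 0.0893 (adjusted p = 0.0325) and 0.32 ± 0.09 (adjusted p = 0.00433) in these strains, and it was not called between strains at either age. Of the 8 heat and general stress factor genes listed, 2 rose and 4 fell in aged msn2∆msn4∆ against wild type (16.6% of all genes rose and 19.7% fell), and the deleted MSN2 and MSN4 are 2 of those 4. In aged msn2∆ 3 rose and 2 fell (13.9% and 16%), the deleted MSN2 being 1 of the 2 that fell. MBF1, a transcriptional coactivator, fell by 0.74 ± 0.0801 in aged msn2∆msn4∆ and 0.72 ± 0.0795 in aged msn2∆. RPH1, a histone demethylase that acts as a repressor, rose with age by 0.97 ± 0.0931, 1.02 ± 0.0868 and 0.57 ± 0.0867 in msn2∆msn4∆, msn2∆ and wild type.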

How the data were processed

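Per the labels, polyA RNA from 18 samples was made into libraries with a directional kit and sequenced as paired reads of 150 bases. The submitters' processing notes name bcl2fastq, cutadapt 2.6, STAR 2.7.6a, featureCounts of Subread 1.6.2 and build R64 (sacCer3). The authors deposited expected counts, that is, estimated counts per feature that were not scaled, of which 54.6% of values above 0 were not whole to 2 decimals. The treatment of reads that fit several places is not given in the sources used here. Of 7118 feature IDs, 6040 matched locus tags.

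Counts were rounded, and 6833 genes kept by filterByExpr were fitted over all 18 libraries with edgeR 4.0.16 (R 4.3.3, TMM factors, 1 mean per group, 12 residual degrees of freedom, quasi-likelihood F tests, two-sided), with Benjamini-Hochberg adjustment over all tested genes within each of 12 contrasts. Counting error is part of the fitted spread. Ratios used counts plus 0.5 per kb and exact permutation within strains or ages. Upstream sequences were read from the RefSeq R64 genome. One upstream region is not reported here. The code was tested on simulated data with known changes.

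The 10 genes and the lists of partner genes, motifs and markers were chosen with earlier results of these data known. Named genes were the 10, HSF1, MSN2 and MSN4, up to 3 listed genes with the smallest p in a contrast, and the 3 genes nearest each in pattern. Values given for a listed gene in further contrasts follow the same rule there.

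Alternatives were DESeq2 1.42.0, RLE factors, library totals, no filter, at least 10 CPM in 3 libraries, the contrast's libraries only, no mitochondrially encoded, ribosomal RNA and Ty features, thinning to the smallest total, paralogs summed, replicate block, each library left out, no aged msn2∆msn4∆ libraries, and for ratios no pseudocount or 5 counts. Adding the counts of overlapping reading frames was chosen after the data were seen. Labels give no batch. Over 5604 genes, libraries with the same replicate number deviated together in aged and young wild type (correlations of 0.247, 0.512 and 0.222), so the numbers may pair those, and the block changed no call of the 10 genes there; in no other pair of groups were all 3 over 0.1.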

Additional observations from a re-analysis of the deposited data

Results flagged for a closer look

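These 12 values were picked out because the age effect, the log2 fold change of aged over young cells, differed between strains in a test of that difference (edgeR's quasi-likelihood test, Benjamini-Hochberg adjusted over all genes). Relative to wild type, the age effect in msn2∆msn4∆ differed by -1.14 for HSP104 (adjusted p = 5.2e-07), -0.94 for HSP78 (1.17e-05), -0.80 for SSA1 (0.000191), -0.74 for SSE1 (0.000353), -0.66 for SSA4 (0.000157) and -0.46 for SSE2 (0.0138). In msn2∆ it differed from wild type by -1.05 for HSP104 (adjusted p = 2.12e-06), -0.74 for SSE1 (0.000677), -0.73 for HSP78 (0.000164), -0.42 for SSA1 (0.0267) and -0.36 for SSA4 (0.0202). Between msn2∆msn4∆ and msn2∆, SSA3 differed by -0.60 (adjusted p = 0.0432). The SSE1 values go with the young deletion strains, in which SSE1 was higher than in young wild type, and those of HSP104 and HSP78 with aged cells, in which both were lower than in aged wild type. The comparisons share the wild-type or msn2∆ libraries, and the causes were not tested.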

How the results depend on the processing

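Of the results for single genes under alternatives, 2175 kept their call or stayed without one, 93 lost the call and 15 gained one. Another 7 changed direction with a call in the main fit, the alternative or both. Direction changes without a call in either fit are counted among the 2175. Among the 7, the direction changed with library totals for the age effect of SSA1 (0.19), HSP104 (0.25) and HSP78 (0.36) in msn2∆ and of HSP104 in msn2∆msn4∆ (0.00), as these totals lift all genes. It changed with paralogs summed for SSA1 with age in wild type (-0.71), SSA2 in aged msn2∆msn4∆ against wild type (-0.29) and SSA1 in aged msn2∆msn4∆ against msn2∆ (0.13). Of the 10 genes, 7 were called in aged msn2∆msn4∆ against msn2∆, against 3 with library totals or thinning, 4 with only the contrast's libraries or paralogs summed, and 3 to 5 leaving out a library. The age effect of msn2∆ differed from wild type for 5, against 3 with library totals or thinning and 3 to 5 leaving out a library. That of msn2∆msn4∆ differed from msn2∆ for 1, against 3 with library totals or DESeq2, 0 with the contrast's libraries or thinning, and 0 to 2 leaving out a library. In young cells 3 were called in msn2∆msn4∆ against wild type and 1 after thinning, and 3 in msn2∆ and 1 to 3 leaving out a library.

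Leaving out a library, SSA3 over SSA2 ranged from 0.19 to 0.31 in msn2∆ and from -0.31 to -0.21 in msn2∆msn4∆ against wild type, and SSB2 over SSB1 from -0.05 to -0.03 and from -0.04 to -0.02. Of 45 pairs with the same replicate number, 16 had a correlation over 0.1 (median -0.055). With the replicate block SSA3 over SSA2 in msn2∆msn4∆ was -0.27 and no longer called (exact permutation, adjusted p = 0.0865), and HSP78 and SSB1 in aged msn2∆msn4∆ against msn2∆ lost their call; the block changed no other call of the 10 genes.

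Counts over all genes moved in young msn2∆ (1234 thinned, against 2084) and young msn2∆msn4∆ against wild type (1695, against 2579), and between the young deletion strains (11 to 19, or 85 with DESeq2, against 31). Without aged msn2∆ replicate 3 or aged msn2∆msn4∆ replicate 3, aged msn2∆msn4∆ against msn2∆ gave 1042 or 1069, against 1696. For the age effect, msn2∆ minus wild type gave 387 thinned, 645 without young wild-type replicate 3 and 657 without aged msn2∆ replicate 1, against 1009. The msn2∆msn4∆ differences gave 628 thinned, against 1104, for wild type, and 215 thinned or 645 with DESeq2, against 422, for msn2∆. The causes were not tested, apart from fewer counts in thinning and fewer libraries. The shallow aged msn2∆msn4∆ libraries limit small differences; without them 70 of 70 results of the other strains kept their call.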
